A study of Homo sapiens with 9 samples.

Results

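The tripartite motif (TRIM) genes were taken as every row of the expression table whose gene name is TRIM followed by a number, with an optional A or L, and that reached 1 TPM (a transcript abundance normalised for length) in at least 3 of the 9 libraries. Of 58174 rows, 67 carried such a name and 36 passed, beside 14118 rows of any name that passed the same expression level. The study sequenced RNA from cells labelled HepG2, an established human liver cancer line, grown in high-glucose medium with serum. The groups were 3 libraries of a line overexpressing NFE2L1, 3 of a line overexpressing NFE2L1DC and 3 of control cells, labelled WT and named in the protocol with the pLVX vector. NFE2L1 is a cap'n'collar transcription factor held in the endoplasmic reticulum membrane, and the protocol writes NFE2L1DC with a delta sign before the C, without giving the extent of the change in the sources used here. Each group was 1 cell line, no separate cultures are named, and p-values therefore measure only the spread between these libraries, which may be technical.

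NFE2L1 itself averaged 247 ± 93.5 TPM in the NFE2L1 line, 448 ± 22.9 TPM in the NFE2L1DC line and 83.3 ± 20.2 TPM in control (SD, n = 3 each). Genes that define hepatocytes and HepG2 cells were close to absent: 4 of 8 (ALB, APOB, TTR and FGB) were listed at 0 in all libraries and none reached 1 TPM. Their summed level was 0.0652 to 0.319 TPM in the NFE2L1 line, 0.0578 to 0.227 TPM in the NFE2L1DC line and 0.0452 to 0.114 TPM in control, which goes against the HepG2 label. Of 4 stromal markers 3 reached 1 TPM and COL1A2 was listed at 0. The 4 summed to 30.4 to 37.8 TPM in the NFE2L1 line, 36.8 to 39.6 TPM in the NFE2L1DC line and 43.8 to 46.4 TPM in control, and the part of this difference in the results below was not tested. Of 5 leukocyte markers 4 were listed at 0 in all libraries. Control replicate 3 stood apart from the other controls. Across 14085 genes its difference from their mean followed GC content, with a Spearman rho of -0.616, and 10 of the 36 TRIM members were over 0.5 log2 units higher in it and 0 lower, beside 29.4% of all genes higher. The contrasts also followed GC content. Over these genes rho was -0.39 for NFE2L1 against control, -0.316 for NFE2L1DC against control and -0.215 for NFE2L1 against NFE2L1DC, which compares no control library. Over the 36 members it was -0.286, -0.0167 and -0.358 in the same order. Where the call of a member or its absence turned on control replicate 3, this is stated with the member or with the counts of the contrast.

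TRIM proteins are built from a RING finger, B-boxes and a coiled coil, followed by a variable C-terminal part that often binds the target. Most act as ubiquitin ligases through the RING, and several lack it. A large share of the family works in antiviral defence, and the genes of these members are induced by interferon, whose signal reaches DNA through IRF9 and its partners on the interferon-stimulated response element. TRIM16 is known for a different setting: it has no RING, takes part with galectin-3 in the removal of damaged lysosomes and has been described as a partner of NFE2L2, KEAP1 and SQSTM1 in the oxidative stress response. TRIM16L is a shorter paralog of it. The set held 10 of 13 listed interferon-inducible genes, the pair TRIM16 and TRIM16L, and 24 other members.

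The promoters of 4 of the 5 interferon-inducible genes called higher in the NFE2L1 line, and that of TRIM16, are shown. TRIM34, TRIM21 and TRIM16 were picked because they were called in NFE2L1 against NFE2L1DC, and TRIM14 and TRIM26 were added. All of them carry matches to the interferon-stimulated response element, as do TRIM5, TRIM69, TRIM2 and TRIM44, which are not shown. In NFE2L1 against control the transcripts of the 4 and of TRIM16 moved in opposite directions. TRIM25, the other gene called higher, has 1 promoter here without a match and is not shown. The sequences are RefSeq's on GRCh38.p14, each from 250 bases before to 50 bases after the annotated start, on the gene's own strand, and capitals mark matches to GAAA-NN-GAAA on either strand and, in TRIM16 alone, one match to the STAT site TTCNNNGAA at position -184.
TRIM34, chr11:5624751-5625050, plus strand: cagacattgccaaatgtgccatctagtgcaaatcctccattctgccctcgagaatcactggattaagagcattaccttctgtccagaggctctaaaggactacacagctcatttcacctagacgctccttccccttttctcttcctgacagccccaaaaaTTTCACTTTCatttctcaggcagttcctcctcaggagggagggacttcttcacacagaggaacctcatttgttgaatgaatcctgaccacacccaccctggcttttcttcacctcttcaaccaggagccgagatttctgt
TRIM21, chr11:4393653-4393952, minus strand: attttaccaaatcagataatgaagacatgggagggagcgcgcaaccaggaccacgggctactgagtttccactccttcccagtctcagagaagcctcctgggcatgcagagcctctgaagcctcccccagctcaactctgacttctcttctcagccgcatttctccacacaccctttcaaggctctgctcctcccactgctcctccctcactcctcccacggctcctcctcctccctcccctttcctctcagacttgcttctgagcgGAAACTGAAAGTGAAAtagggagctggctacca
TRIM14, chr9:98119173-98119472, minus strand: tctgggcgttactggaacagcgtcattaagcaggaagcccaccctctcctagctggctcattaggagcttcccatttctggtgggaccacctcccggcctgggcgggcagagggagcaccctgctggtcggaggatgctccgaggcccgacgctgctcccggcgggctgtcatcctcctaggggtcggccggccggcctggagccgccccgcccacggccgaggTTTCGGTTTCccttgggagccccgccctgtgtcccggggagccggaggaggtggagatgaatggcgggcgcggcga
TRIM26, chr6:30213357-30213656, minus strand: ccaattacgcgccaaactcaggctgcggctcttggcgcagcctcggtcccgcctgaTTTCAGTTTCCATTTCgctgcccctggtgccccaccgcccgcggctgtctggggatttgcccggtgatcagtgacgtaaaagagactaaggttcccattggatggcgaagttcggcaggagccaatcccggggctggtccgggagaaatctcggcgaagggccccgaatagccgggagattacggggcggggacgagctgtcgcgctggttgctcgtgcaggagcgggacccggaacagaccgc
TRIM16, chr17:15682902-15683201, minus strand: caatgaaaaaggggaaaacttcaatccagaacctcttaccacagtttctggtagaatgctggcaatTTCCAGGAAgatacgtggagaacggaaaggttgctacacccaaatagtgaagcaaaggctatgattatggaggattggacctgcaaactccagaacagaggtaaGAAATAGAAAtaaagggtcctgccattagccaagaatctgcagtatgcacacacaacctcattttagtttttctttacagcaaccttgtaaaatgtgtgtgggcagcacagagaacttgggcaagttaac
The matches begin at position -90 in TRIM34, -26 in TRIM14 and -80 in TRIM16. In TRIM21 a pair of overlapping matches begins at 18 and 24 bases past the start, and in TRIM26 another pair begins at -194 and -188. A second annotated promoter of TRIM34 holds no match. The windows shown for TRIM34 and TRIM16 lie wholly inside the genes (5619764 to 5644398 and 15627960 to 15684311), so their starts are internal. Whether these cells use those starts was not tested.

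Of the 36 members 25 had a promoter in the table. GAAA-NN-GAAA was present in 6 of 9 interferon-inducible members (TRIM5, TRIM14, TRIM21, TRIM26, TRIM34 and TRIM69), in TRIM16 and in 2 of 15 other members (TRIM2 and TRIM44), beside 3.57% of 35116 promoters of the same length. Some members have several promoters, 10 for the 9 interferon-inducible members and 28 for the 15 others, so their chance of a match is not that of a single promoter. TTCNNNGAA was in 0 of 9 interferon-inducible members, in TRIM16 and in 3 of 15 others, beside 7.66% of promoters. The antioxidant response element TGACNNNGC, the site of NFE2L1 and NFE2L2 with small MAF proteins, was in 0 of 9 interferon-inducible members, not in TRIM16 and in 4 of 15 others (TRIM2, TRIM39, TRIM47 and TRIM62), beside 13.3% of promoters.

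The 36 members covered a wide range of levels. TRIM28 was the most abundant, TRIM29 and TRIM16L followed, and TRIM2 was the lowest. In all, 2 members averaged over 100 TPM across the 9 libraries, 19 lay between 10 and 100 TPM, and 15 lay under 10 TPM. At least 1 TPM was reached in all 9 libraries by 33 members, in 7 by TRIM34 and TRIM52 and in 6 by TRIM2, and no member passed through the libraries of a single group. Of the 31 named rows that did not pass, 16 were listed at 0 in all libraries, and the closest to passing was TRIM6, with 0.540, 0.604 and 0.404 TPM in the NFE2L1 libraries, 0.525, 0.285 and 0.366 TPM in the NFE2L1DC libraries and 0.216, 0.522 and 0.703 TPM in control. TPM divides by transcript length, so levels can be set side by side between genes, but the values are not counts and the depth behind them is unknown.

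Summed over members, TRIM transcripts amounted to 1446 ± 75.9 TPM in the NFE2L1 line, 1461 ± 86.2 TPM in the NFE2L1DC line and 1307 ± 38.6 TPM in control (SD, n = 3 each). The interferon-inducible members made up 23.8% of that sum in the NFE2L1 line, 18.3% in the NFE2L1DC line and 15.7% in control. Replicates agreed more closely in the NFE2L1 line than in the other groups, with a median coefficient of variation over members of 8.77%, against 15% in the NFE2L1DC line and 16.6% in control. TRIM52 was the most variable member in both overexpressing lines, at 76% in the NFE2L1 line and 99.2% in the NFE2L1DC line, and TRIM2 was in control, at 74.0%. TRIM52, also close to the filter, had 0.525, 6.03 and 6.24 TPM in the NFE2L1 libraries, 5.44, 1.19 and 0.984 TPM in the NFE2L1DC libraries and 3.70, 1.33 and 2.66 TPM in control.

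**Figure D1:**
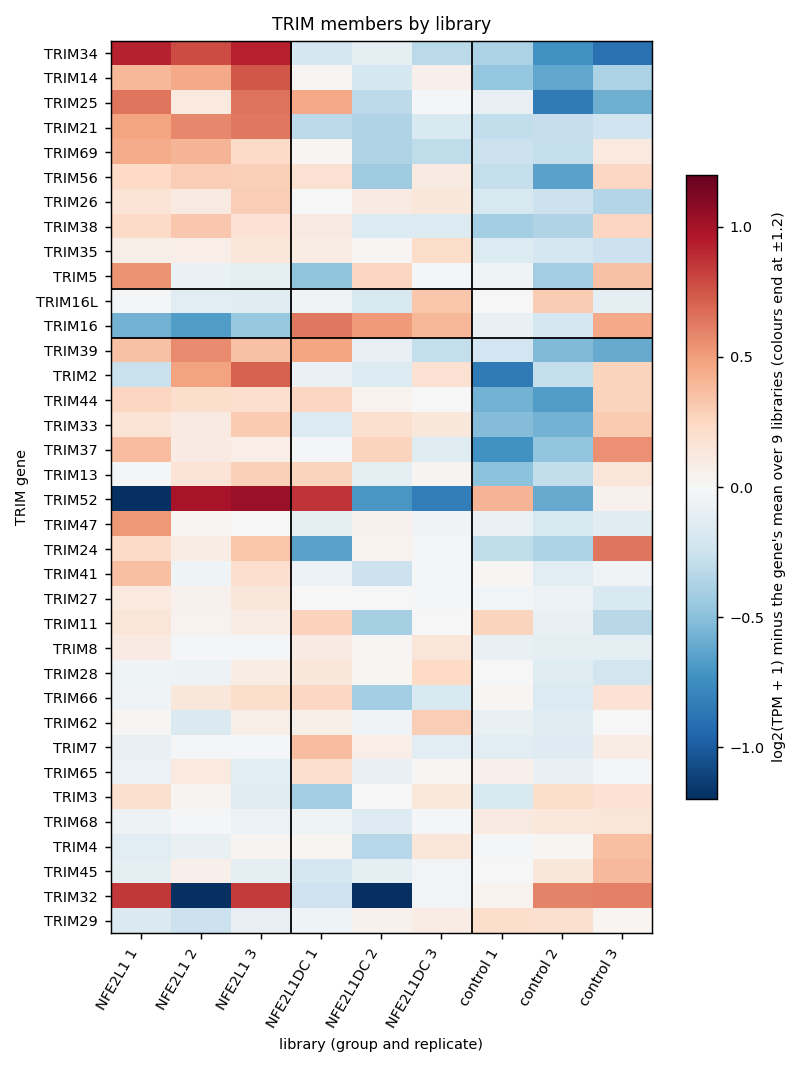
Rows are the 36 TRIM members and columns the 9 libraries, and colour gives log2(TPM + 1) minus the gene's mean over the libraries. Horizontal lines separate the interferon-inducible members at the top, TRIM16L and TRIM16 in the middle and the other members below, and TRIM34, TRIM14 and TRIM21 are high in all 3 NFE2L1 libraries while TRIM16 is low there and high in the 3 NFE2L1DC libraries.

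In the NFE2L1 line against control, 5 of the 10 interferon-inducible members rose and TRIM16 fell. TRIM34, TRIM14, TRIM25 and TRIM21 were 1.85 to 5.18 times the control level and TRIM26 was 1.38 times it. Outside these groups TRIM39 rose and TRIM29 fell, and the other 22 of 24 members were not called. In all, 8 of 36 members (22.2%) were called at an adjusted p under 0.05 by limma on log2(TPM + 1), beside 10.4% of all 14118 genes. Of these 6 were higher, beside 7.83% of all genes, and 2 were lower, beside 2.57%. In these bulk libraries fewer cells that express a gene and less RNA of it per cell cannot be told apart.

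All 10 interferon-inducible members had a positive log2 fold change, beside 9696 of all 14118 genes tested. The median of the 10 was 0.50, and the median over all genes tested was 0.17. The median was 0.13 over the 24 other members and -0.39 over TRIM16 and TRIM16L. Median-of-ratios scaling, which brought the median of all genes to 0.02, gave 0.34 for the interferon-inducible members, all 10 still positive, -0.57 for TRIM16 and TRIM16L and -0.04 for the other members, whose sign thus flipped. Without control replicate 3, 8 of the 10 interferon-inducible members were called higher (TRIM38, TRIM56 and TRIM69 in addition) with a median of 0.68, and the count over all 36 members was 15, of which 13 were higher, beside 30.1% of all genes in that fit, and 2 lower, beside 5.69%. Against control replicate 3 alone, a setting chosen after the data were seen, 8 of the 10 still had a positive log2 fold change. TRIM5 (-0.24) and TRIM38 (-0.019) were negative there. The count over all members was 3 without NFE2L1 replicate 3, 4 without NFE2L1 replicate 1, 5 without NFE2L1 replicate 2, and 5 without control replicate 2 or without NFE2L1DC replicate 3. The share of all genes called in these fits is not given here. TRIM14, TRIM21 and TRIM34 were called in each of these fits.

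**Figure D2:**
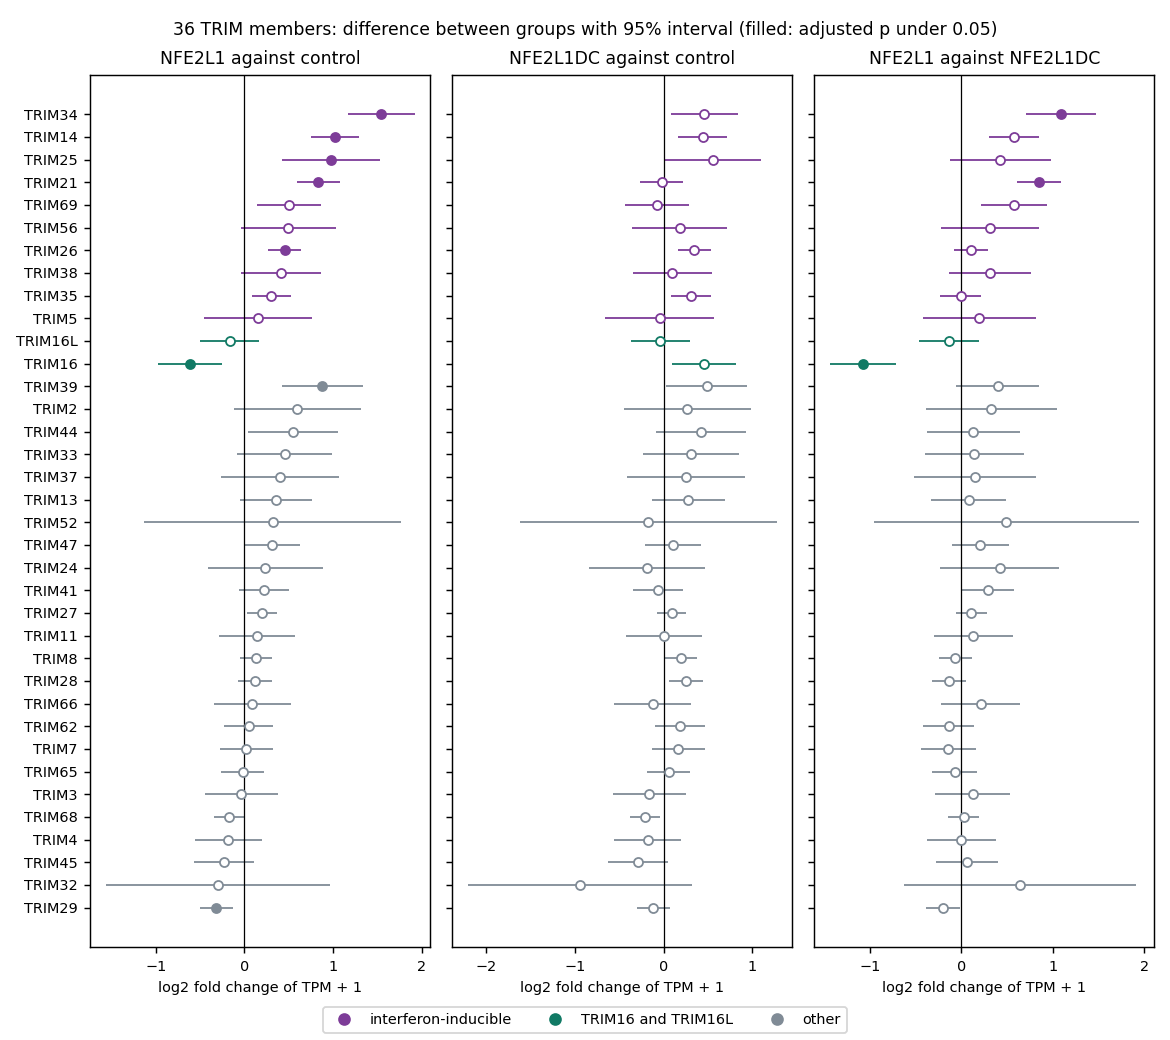
Points give the log2 fold change of TPM + 1 of each of the 36 members with its 95% interval, for NFE2L1 against control, NFE2L1DC against control and NFE2L1 against NFE2L1DC, and filled points passed an adjusted p under 0.05. The left panel has 8 filled points, the middle panel 0 and the right panel 3.

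TRIM34 (ENSG00000258659, chromosome 11, 5619764 to 5644398, plus strand) is a close relative of the retroviral restriction factor TRIM5 and takes part with it in recognising viral capsids. It was listed at 4.45, 3.95 and 4.47 TPM in the NFE2L1 libraries, at 1.49, 1.67 and 1.30 TPM in the NFE2L1DC libraries and at 1.202, 0.739 and 0.541 TPM in control. The NFE2L1 libraries lay above all others, and the NFE2L1DC libraries lay above control. Its log2 fold change was 1.55 ± 0.17 (SE) for NFE2L1 against control (adjusted p = 0.000701) and 1.09 ± 0.17 for NFE2L1 against NFE2L1DC (adjusted p = 0.0193). It was 0.46 ± 0.17 for NFE2L1DC against control and not called (adjusted p = 0.159). TRIM34 is low, so its size depends on the constant added before the log: NFE2L1 against control was 2.30 on log2(TPM + 0.1) and 0.67 on log2(TPM + 5), called on both, and NFE2L1 against NFE2L1DC was 1.47 (not called, adjusted p = 0.0774) and 0.52 (called). The gene shares 82% of its 31-base stretches with the readthrough gene TRIM6-TRIM34, which was listed at 0 in the 6 libraries of both overexpressing lines and at 0, 0.491 and 0.623 TPM in control, so the split between them is uncertain. Summed with it, the level was 4.29 ± 0.294 TPM in the NFE2L1 line, 1.49 ± 0.187 TPM in the NFE2L1DC line and 1.199 ± 0.0334 TPM in control (SD, n = 3 each). On this sum the NFE2L1 line was 3.58 times control, not 5.18 times.

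TRIM14 (ENSG00000106785, chromosome 9, 98069275 to 98119212, minus strand) has no RING and acts as an adaptor of MAVS in the response to viral RNA. It stood at 68.7, 71.2 and 87.2 TPM in the NFE2L1 libraries, at 52.2, 44.5 and 53.9 TPM in the NFE2L1DC libraries and at 37.3, 33.1 and 39.6 TPM in control. The 3 groups did not overlap, and the NFE2L1 line was 2.06 times control, or 1.02 ± 0.12 in log2 units (SE, adjusted p = 0.00120). The log2 fold change of NFE2L1DC against control was 0.44 ± 0.12 (adjusted p = 0.0831) and that of NFE2L1 against NFE2L1DC 0.58 ± 0.12 (adjusted p = 0.1002), and neither was called. Without control replicate 3, TRIM14 was called higher in NFE2L1DC against control. The antisense neighbour NANS overlaps 7.72% of its exon bases and was listed at 88.7 to 119 TPM. Strandedness was not among the details given in the sources used here, so reads from that overlap cannot be assigned.

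TRIM21 (ENSG00000132109, chromosome 11, 4384897 to 4393696, minus strand) is a cytosolic antibody receptor that marks antibody-coated virus for degradation. It was listed at 18.5, 20.0 and 20.8 TPM in the NFE2L1 libraries, at 10.3, 9.92 and 11.4 TPM in the NFE2L1DC libraries and at 10.5, 10.6 and 10.9 TPM in control. The NFE2L1 libraries stood apart, while the NFE2L1DC and control libraries overlapped. In log2 units TRIM21 changed by 0.83 ± 0.11 (SE) for NFE2L1 against control (adjusted p = 0.00196) and 0.85 ± 0.11 for NFE2L1 against NFE2L1DC (adjusted p = 0.00694). For NFE2L1DC against control it was -0.02, with a 95% interval of -0.26 to 0.22.

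TRIM25 (ENSG00000121060, chromosome 17, 56836387 to 56914080, minus strand) is a ubiquitin ligase that works with the RNA sensor RIG-I and the antiviral RNA-binding protein ZAP. It stood at 109, 75.5 and 109.6 TPM in the NFE2L1 libraries, at 95.6, 55.8 and 68.9 TPM in the NFE2L1DC libraries and at 64.96, 38.1 and 46.2 TPM in control. The spread within each group was wide, and the NFE2L1 libraries lay above the control libraries and overlapped with the NFE2L1DC libraries. The log2 fold change of NFE2L1 against control was 0.98 ± 0.24 (SE, adjusted p = 0.0367), and leaving out NFE2L1 replicate 1 or 3, NFE2L1DC replicate 3 or control replicate 2 ended the call (adjusted p = 0.0595 to 0.130).

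TRIM26 (ENSG00000234127, chromosome 6, 30184455 to 30213427, minus strand) is a ubiquitin ligase of the major histocompatibility region. It was listed at 96.2, 92.2 and 105 TPM in the NFE2L1 libraries, at 85.3, 91.8 and 94.3 TPM in the NFE2L1DC libraries and at 74.7, 71.2 and 66.9 TPM in control. Both overexpressing lines lay above control without overlap. In log2 units TRIM26 changed by 0.46 ± 0.08 (SE) for NFE2L1 against control (adjusted p = 0.0108) and 0.35 ± 0.08 for NFE2L1DC against control, which missed the threshold (adjusted p = 0.0543). The second of these was called without control replicate 3. The first of these fell to 0.28 under median-of-ratios scaling and was no longer called (adjusted p = 0.226), and it was 0.41 and not called without NFE2L1 replicate 3 (adjusted p = 0.0538).

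The other 5 interferon-inducible members were not called in any contrast with all libraries. Without control replicate 3, TRIM38, TRIM56 and TRIM69 were called higher in NFE2L1 against control, beside 30.1% of all genes in that fit. TRIM69, which restricts some RNA viruses, was listed at 13.7, 13.3 and 11.7 TPM in the NFE2L1 libraries, at 10.0, 7.41 and 7.73 TPM in the NFE2L1DC libraries and at 8.06, 7.86 and 10.7 TPM in control, with an adjusted p of 0.0777 for NFE2L1 against control. TRIM35, a ubiquitin ligase linked to IRF7, was listed at 20.1, 20.2 and 21.2 TPM in the NFE2L1 libraries, at 20.3, 19.3 and 22.4 TPM in the NFE2L1DC libraries and at 16.9, 16.5 and 15.8 TPM in control. Its control libraries lay under all 6 others, with log2 fold changes of 0.30 for NFE2L1 against control (adjusted p = 0.0801) and 0.31 for NFE2L1DC against control (adjusted p = 0.117).

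TRIM56, an antiviral ubiquitin ligase, was listed at 8.14, 8.48 and 8.41 TPM in the NFE2L1 libraries, at 7.80, 4.77 and 7.33 TPM in the NFE2L1DC libraries and at 5.34, 3.97 and 8.19 TPM in control. TRIM38, which limits inflammatory signalling, was listed at 3.48, 3.79 and 3.31 TPM in the NFE2L1 libraries, at 3.13, 2.42 and 2.41 TPM in the NFE2L1DC libraries and at 1.88, 1.97 and 3.58 TPM in control. In both genes control replicate 3 was the highest control by a wide margin and lay within or near the NFE2L1 libraries. TRIM5, the retroviral capsid factor, was listed at 4.72, 2.74 and 2.67 TPM in the NFE2L1 libraries, at 1.83, 3.71 and 2.89 TPM in the NFE2L1DC libraries and at 2.81, 1.97 and 4.05 TPM in control, and its groups overlapped throughout. The remaining 3 listed genes, TRIM6, TRIM22 and TRIM31, did not reach the level needed for a test. TRIM22, an antiviral neighbour of TRIM5 and TRIM34, was listed at 0.239, 0.476 and 0.562 TPM in the NFE2L1 libraries, at 0, 0.0358 and 0.0321 TPM in the NFE2L1DC libraries and at 0, 0.0561 and 0 TPM in control.

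**Figure D3:**
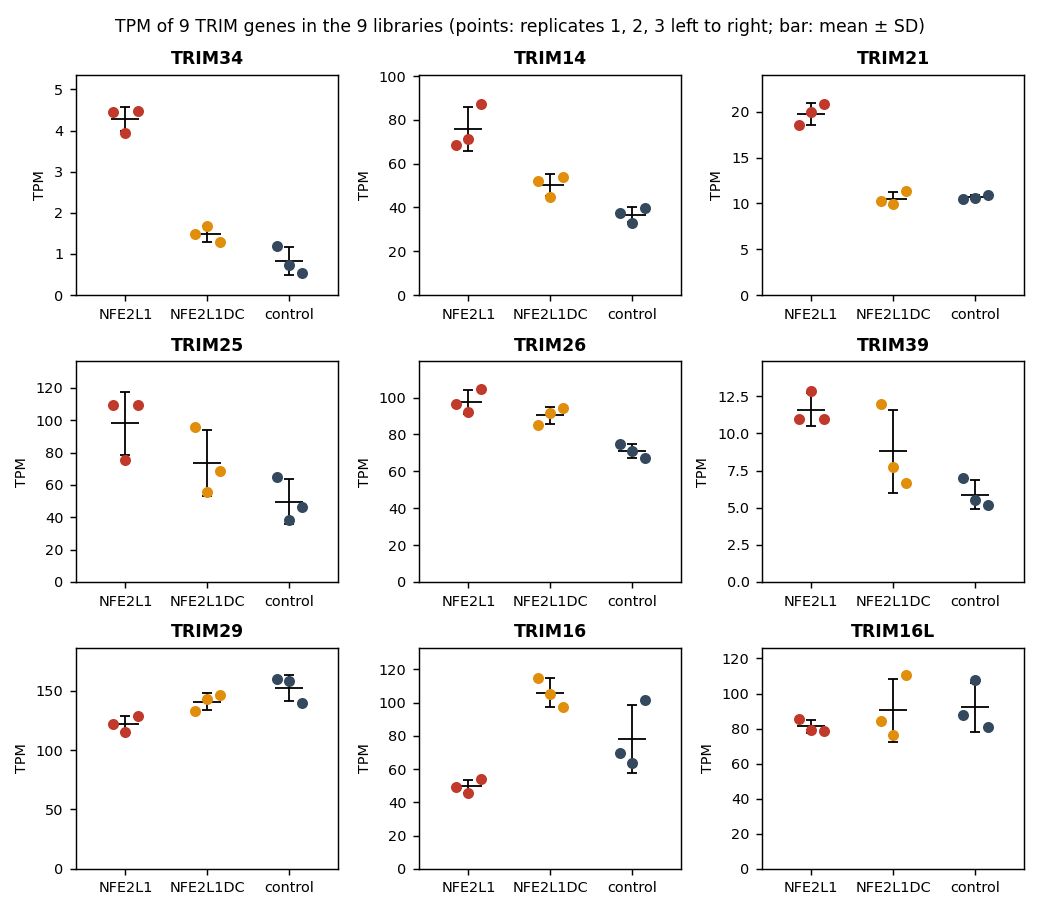
TPM of 9 TRIM genes in each library, with the mean and SD of each group of 3, each vertical axis starting at 0. TRIM34, TRIM14 and TRIM21 have their NFE2L1 libraries above all others, TRIM29 and TRIM16 have them below all others, and TRIM16L overlaps between all groups.

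TRIM16 (ENSG00000221926, chromosome 17, 15627960 to 15684311, minus strand) moved the other way. It stood at 49.4, 45.9 and 53.7 TPM in the NFE2L1 libraries, at 115, 105 and 97.3 TPM in the NFE2L1DC libraries and at 69.4, 63.7 and 102 TPM in control. The NFE2L1 libraries lay below all 6 others, and control replicate 3 lay among the NFE2L1DC libraries. TRIM16 in the NFE2L1 line was 0.469 times its level in the NFE2L1DC line, or -1.08 ± 0.16 in log2 units (SE, adjusted p = 0.0166), and 0.635 times control, -0.62 ± 0.16 (adjusted p = 0.0423). It was the member with the most negative log2 fold change in both contrasts.

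NFE2L1DC against control gave 0.46 ± 0.16 for TRIM16 (SE) and was not called (adjusted p = 0.147). Without control replicate 3 it was 0.66 and called (adjusted p = 0.00546), and against that library alone it was 0.05 (adjusted p = 0.867). The difference of NFE2L1 from control was -0.42 without control replicate 3 (adjusted p = 0.0154) and -1.02 against that library alone (adjusted p = 0.0123). It missed the threshold without control replicate 1 and without any single library of either overexpressing line, at adjusted p = 0.0551 to 0.128, with log2 fold changes of -0.69 to -0.56. The difference between the lines stayed between -1.14 and -1.02 over all alternatives. It missed the threshold when any single library of those lines was left out, at adjusted p = 0.0592 to 0.0932.

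TRIM16L (ENSG00000108448, chromosome 17, 18697998 to 18736118, plus strand) was listed at 85.7, 79.4 and 78.8 TPM in the NFE2L1 libraries, at 84.6, 76.1 and 110.4 TPM in the NFE2L1DC libraries and at 87.7, 108 and 81.0 TPM in control. The groups overlapped in every contrast. The log2 fold change was -0.17 for NFE2L1 against control, with a 95% interval of -0.50 to 0.16, and -0.03 for NFE2L1DC against control, with an interval of -0.36 to 0.30. For NFE2L1 against NFE2L1DC it was -0.13, with an interval of -0.46 to 0.20, which does not reach the -1.08 of TRIM16. The difference between the 2 genes was not tested.

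TRIM16 and TRIM16L are near-identical over part of their length: 38.9% of the 31-base stretches of TRIM16 occur in TRIM16L and 52.4% of those of TRIM16L in TRIM16. The overlapping gene AC005324.3, listed at 0.336 to 7.91 TPM, holds 21.2% of those of TRIM16, partly the same stretches, and 51.8% of them occur in some other gene. The division of reads among them has no account in the sources used here, so the values of either gene are uncertain to that extent. Their sum was 131 ± 5.10 TPM in the NFE2L1 line, 196 ± 13.5 TPM in the NFE2L1DC line and 170.4 ± 12.8 TPM in control (SD, n = 3 each). TRIM16 made up 37.9% of that sum in the NFE2L1 line, 54.2% in the NFE2L1DC line and 45.7% in control. With AC005324.3 added, the NFE2L1 line was 0.771 times control and 0.679 times the NFE2L1DC line, so the order of the groups was the same for the sum as for TRIM16.

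**Figure D4:**
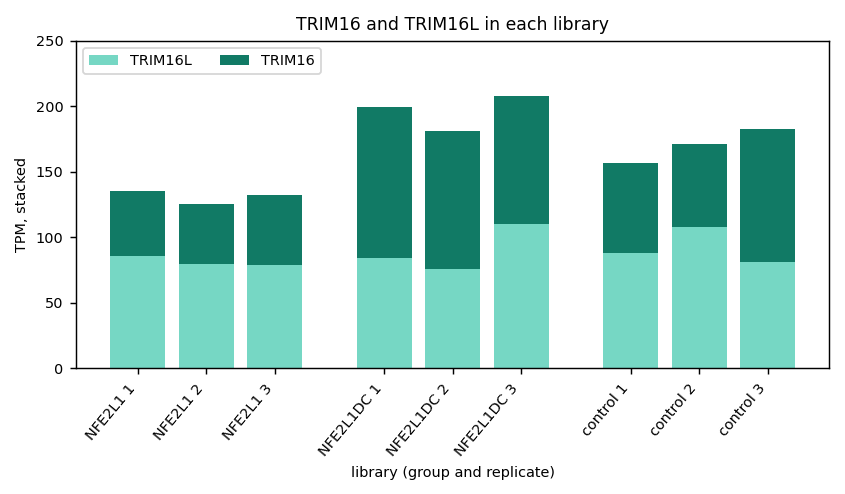
Stacked bars give the TPM of TRIM16L (light) and TRIM16 (dark) in each of the 9 libraries. The sum averages 131 TPM in the NFE2L1 line, 196 TPM in the NFE2L1DC line and 170.4 TPM in control, and the dark part changes more between groups than the light part.

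Among the 24 other members 1 rose and 1 fell in the NFE2L1 line against control. TRIM39 (ENSG00000204599, chromosome 6, 30326479 to 30343729, plus strand), a ubiquitin ligase of cell cycle and apoptosis regulators, was listed at 10.9, 12.9 and 10.97 TPM in the NFE2L1 libraries, at 11.97, 7.75 and 6.68 TPM in the NFE2L1DC libraries and at 6.97, 5.497 and 5.15 TPM in control. The NFE2L1 libraries lay above control, and NFE2L1DC replicate 1 lay among them. The log2 fold change of NFE2L1 against control was 0.88 ± 0.20 (SE, adjusted p = 0.0278), and it was not called without any single NFE2L1 library or without control replicate 2 (adjusted p = 0.0781 to 0.0997). TRIM39 shares 27.9% of its 31-base stretches with the readthrough gene TRIM39-RPP21. Their sum was 15.9 ± 2.36 TPM in the NFE2L1 line, 14.3 ± 3.68 TPM in the NFE2L1DC line and 9.09 ± 1.56 TPM in control (SD, n = 3 each). The antisense gene HCG18, listed at 10.6 to 19.4 TPM, overlaps 12.2% of its exon bases.

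TRIM29 (ENSG00000137699, chromosome 11, 120111275 to 120185529, minus strand) has no RING, is known from stratified epithelia and binds p53. It was listed at 122, 115 and 129 TPM in the NFE2L1 libraries, at 133, 143 and 146 TPM in the NFE2L1DC libraries and at 160.0, 158 and 140.1 TPM in control. The NFE2L1 libraries lay below all others, and the NFE2L1DC and control libraries overlapped. The log2 fold change of NFE2L1 against control was -0.32 ± 0.08 (SE, adjusted p = 0.0403). After correction for GC content and length it was -0.09 and not called (adjusted p = 0.431), and 7 of 9 fits that left out a single library also missed the threshold.

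TRIM28, the corepressor recruited by KRAB zinc finger proteins, was listed at 376, 374 and 415 TPM in the NFE2L1 libraries, at 428, 395 and 459 TPM in the NFE2L1DC libraries and at 389.7, 352 and 334 TPM in control. It held 25.7% to 30.2% of the summed TRIM transcripts in every library. Its log2 fold change was 0.12 for NFE2L1 against control and 0.25 for NFE2L1DC against control, neither of them called (adjusted p = 0.365 and 0.128). The relatives of TRIM28 with a PHD finger and a bromodomain, TRIM24, TRIM33 and TRIM66, were not called in any contrast with all libraries. For TRIM33, a ubiquitin ligase of the transforming growth factor pathway, that turned on control replicate 3: it was listed at 3.28, 3.11 and 3.75 TPM in the NFE2L1 libraries, at 2.40, 3.37 and 3.20 TPM in the NFE2L1DC libraries and at 1.67, 1.57 and 3.75 TPM in control. Its log2 fold change was 0.45 for NFE2L1 against control (adjusted p = 0.231), 0.74 without that library (adjusted p = 0.00850) and -0.12 against it alone (adjusted p = 0.831). For NFE2L1DC against control it was 0.31 (adjusted p = 0.467) and 0.60 without that library (adjusted p = 0.0271). Of 10 partners of TRIM28 in chromatin silencing, among them SETDB1, CBX3 and CHD4, 0 were called by limma in any contrast, and 0, 1 and 0 had an unadjusted p under 0.05 for NFE2L1 against control, NFE2L1DC against control and NFE2L1 against NFE2L1DC. Over all 14118 genes tested 4289, 3066 and 1156 did, in the same order. Without control replicate 3, CBX1, CBX3 and CBX5 were called higher in NFE2L1 against control (3 of 10, beside 30.1% of all genes). CBX3 and CBX5 were called higher in NFE2L1DC against control in that fit (2 of 10, beside 20.1% of all genes). Both counts were near the share over all genes. Against that library alone CBX3 had log2 fold changes of -0.90 and -1.06 in the same order.

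The members with an NHL repeat, TRIM2, TRIM3 and TRIM32, were not called in any contrast. TRIM32, a ubiquitin ligase mutated in a limb-girdle muscular dystrophy, varied within groups: it was listed at 25.8, 4.88 and 25.6 TPM in the NFE2L1 libraries, at 11.6, 5.06 and 13.6 TPM in the NFE2L1DC libraries and at 14.4, 21.5 and 21.7 TPM in control. A single library was low in the NFE2L1 line, and all 3 NFE2L1DC libraries lay below control. The log2 fold change was -0.30 for NFE2L1 against control, with a 95% interval of -1.57 to 0.96, and -0.94 for NFE2L1DC against control, with an interval of -2.21 to 0.32 (adjusted p = 0.354), the most negative of any member in that contrast. TRIM2, the passing member in the fewest libraries, had 0.994, 2.35 and 2.92 TPM in the NFE2L1 libraries, 1.27, 1.13 and 1.72 TPM in the NFE2L1DC libraries and 0.330, 0.961 and 1.89 TPM in control, so its groups overlapped. TRIM13, anchored in the endoplasmic reticulum membrane, TRIM37, TRIM44 and TRIM45 were not called with all libraries either. TRIM13 was listed at 12.3, 14.0 and 15.4 TPM in the NFE2L1 libraries, at 15.2, 11.4 and 12.7 TPM in the NFE2L1DC libraries and at 8.55, 9.94 and 13.8 TPM in control. TRIM37, mutated in Mulibrey nanism, had 7.35, 5.93 and 5.85 TPM in the NFE2L1 libraries, 5.38, 6.80 and 4.86 TPM in the NFE2L1DC libraries and 2.92, 3.67 and 8.46 TPM in control. TRIM44 had 11.2, 10.8 and 10.7 TPM in the NFE2L1 libraries, 11.1, 9.44 and 9.16 TPM in the NFE2L1DC libraries and 5.87, 5.39 and 11.2 TPM in control. In all 3 genes control replicate 3 was over 0.5 log2 units above the other controls and lay among or above the other groups, and without it all 3 were called higher in NFE2L1 against control, with log2 fold changes of 0.54 for TRIM13 (0.36 with it), 0.78 for TRIM37 (0.40 with it) and 0.84 for TRIM44 (0.55 with it). Against that library alone these were 0.00025, -0.36 and -0.04 in the same order, and none was called. In NFE2L1DC against control TRIM37 (0.63, adjusted p = 0.0301) and TRIM44 (0.71, adjusted p = 0.00632) were called without it. The fits without that library called 30.1% of all genes higher in NFE2L1 against control and 20.1% in NFE2L1DC against control. Over the members not called in NFE2L1 against control, log2 fold changes ran from -0.30 (TRIM32) to 0.60 (TRIM2).

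In the NFE2L1DC line against control, 0 of 36 members were called by limma, beside 3.61% of all genes (2.06% higher and 1.54% lower). An unadjusted p under 0.05 was found for 10 of the 36, beside 3066 of all 14118 genes tested. The smallest adjusted p belonged to TRIM26 (0.0543) and TRIM14 (0.0831). With library weights, which give control replicate 3 a weight of 0.195, 7 were called higher, beside 18.2% of all genes, and without that replicate 6 were (TRIM14, TRIM16, TRIM26, TRIM33, TRIM37 and TRIM44), beside 20.1% of all genes. The interferon-inducible members had a median log2 fold change of 0.25, TRIM16 and TRIM16L 0.21, the other members 0.07 and all genes tested 0.12. The NFE2L1DC libraries lay above control without overlap in 7 members (19.4%, beside 13.7% of all genes) and below in 3 (8.33%, beside 8.98%). In NFE2L1 against control the same counts were 11 members above (30.6%, beside 22.6% of all genes) and 3 below (8.33%, beside 9.53%). Both comparisons use the same 3 control libraries.

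The lines were also compared directly. In NFE2L1 against NFE2L1DC, 3 of 36 members were called (8.33%, beside 0.793% of all genes): TRIM34 and TRIM21 higher (beside 0.715%) and TRIM16 lower (beside 0.0779%). Of the 10 interferon-inducible members 9 had a positive log2 fold change, beside 8903 of all 14118 genes tested. The median of the 10 was 0.37, while it was 0.13 over the 24 other members and 0.06 over all genes. The NFE2L1 libraries lay above the NFE2L1DC libraries without overlap in 8 members (22.2%, beside 12.4% of all genes) and below in 2 (5.56%, beside 5.55%). Uncalled members had log2 fold changes from -0.20 to 0.64. Leaving out a single library of either line gave 0 or 1 called members: 0 without NFE2L1 replicate 2 or 3, and TRIM21 alone in the other 4 cases. Shares of all genes called in those fits are not given here, so the counts cannot be set against them. Between the lines the NFE2L1 transcript itself had a log2 fold change of -0.92, which was not called (adjusted p = 0.228).

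The genes that carry the interferon signal were compared beside the inducible members. The transcription factors IRF7 and IRF9 rose in NFE2L1 against control. IRF7 averaged 29.8 ± 2.93 TPM in the NFE2L1 line, 4.31 ± 0.621 TPM in the NFE2L1DC line and 5.01 ± 0.520 TPM in control. IRF7 is known as an inducible amplifier of interferon production. IRF9, the DNA-binding part of the interferon complex, averaged 51.3 ± 13.5 TPM in the NFE2L1 line, 9.37 ± 2.86 TPM in the NFE2L1DC line and 10.8 ± 2.49 TPM in control (SD, n = 3 each). Both genes were also called in NFE2L1 against NFE2L1DC, with log2 fold changes of 2.54 for IRF7 and 2.33 for IRF9, and neither was called in NFE2L1DC against control. These calls were the same without control replicate 3 and against it alone. STAT2 and IRF1 were not called in any contrast, and IRF3, which needs no induction, had log2 fold changes of -0.06, -0.09 and 0.03 for NFE2L1 against control, NFE2L1DC against control and NFE2L1 against NFE2L1DC.

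Of 6 tested genes around the RNA sensor RIG-I and the TRIM25 partner ZAP, 3 rose in NFE2L1 against control, beside 7.83% of all genes. The RNA sensor IFIH1 changed by 1.64 ± 0.20 in log2 units (SE, adjusted p = 0.00145), DDX58, which encodes RIG-I, 1.31 ± 0.17 (adjusted p = 0.00170) and ZC3HAV1, which encodes ZAP, 1.23 ± 0.18 (adjusted p = 0.00431). DDX58 reached 1 TPM only in the NFE2L1 libraries (1.42, 1.86 and 2.14 TPM), with at most 0.387 TPM in the NFE2L1DC libraries and 0.324 TPM in control. It passed the filter only through the group where it is high, so its calls and its place in these counts are not independent of the filter. IFIH1 and DDX58 were also called higher in NFE2L1 against NFE2L1DC, beside 0.715% of all genes. In NFE2L1DC against control 0 of the 6 were called, beside 2.06% of all genes higher and 1.54% lower. There 0 of the 6 had an unadjusted p under 0.05, beside 3066 of all 14118 genes tested. Against control replicate 3 alone none of the 3 was called (adjusted p = 0.0515 for IFIH1, 0.0697 for DDX58 and 0.0764 for ZC3HAV1), and without it ZC3HAV1 was also called higher in NFE2L1 against NFE2L1DC (0.83) and in NFE2L1DC against control (0.62). MAVS, RNF135 and the ZAP cofactor KHNYN were not called in any contrast. Members of the family under other symbols, PML, MID1 and MID2, were not called, with PML nearest (0.65 ± 0.19, adjusted p = 0.0585, NFE2L1 against control). Without control replicate 3 all 3 were called higher in NFE2L1 against control (0.74 for PML, 1.04 for MID1 and 0.47 for MID2), beside 30.1% of all genes. MID1 was also called higher in NFE2L1DC against control in that fit (0.73), beside 20.1% of all genes.

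For TRIM16 the comparison lists were genes of the antioxidant response and of autophagy. In NFE2L1 against control 8 of 23 antioxidant response genes rose, beside 7.83% of all genes, and 2 fell, beside 2.57%. Without control replicate 3 these counts were 10 and 3, beside 30.1% and 5.69% of all genes, and against it alone HMOX1 was the single gene called. HMOX1, which degrades heme, averaged 279 ± 14.6 TPM in the NFE2L1 line, 26.7 ± 2.55 TPM in the NFE2L1DC line and 36.2 ± 7.06 TPM in control (SD, n = 3 each), ABCC2, SLC7A11 and AKR1B10 had log2 fold changes of 1.10, 1.09 and 1.08 (1.42, 1.31 and 1.02 without control replicate 3, and 0.48, 0.66 and 1.2 against it alone), and EPHX1 and TKT were the genes that fell. HMOX1 and AKR1B10 were called higher in NFE2L1 against NFE2L1DC (2 of 23, beside 0.715% of all genes), where TRIM16 was lower. SRXN1 and OSGIN1 were called higher in NFE2L1DC against control (2 of 23, beside 2.06%). Without control replicate 3 the counts there were 7 higher, ABCC2 (0.78) and SLC7A11 (0.79) among them, and 3 lower, beside 20.1% and 4.34% of all genes. AKR1B10 reached 1 TPM only in the NFE2L1 libraries (2.13, 1.77 and 1.75 TPM), with at most 0.553 TPM in the NFE2L1DC libraries and 0.735 TPM in control. It passed the filter only through the group where it is high, so its calls are not independent of the filter. Of 7 autophagy-linked genes, TFEB (0.59, adjusted p = 0.0129) and LGALS3 (0.36, adjusted p = 0.0219), which encodes galectin-3, rose in NFE2L1 against control, beside 7.83% of all genes. ULK1 (-0.34, adjusted p = 0.0404) fell, beside 2.57% of all genes. Against control replicate 3 alone none of these was called, and ULK1 was also called lower in NFE2L1DC against control without it (-0.31). SQSTM1, KEAP1, NFE2L2 and BECN1 were not called in any contrast.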

How the data were processed

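Total RNA of 9 libraries was sequenced, and the authors deposited 1 table of TPM values, transcript levels corrected for length and for each library's total, for 58174 genes in 9 columns, 1 per library. Per the submitters' processing notes CASAVA and the GRCh38 build were used. The aligner, the quantifier, the annotation, strandedness and filters have no entry there and were not given in the sources used here. Columns summed to 999983 to 999991.7, the values were not whole and no counts were present, so depth is unknown and no counting interval can be given. The 36 members had coordinates, GC content and length in GENCODE release 29, to which 57836 identifiers matched.

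From these values, genes with at least 1 TPM in at least 3 of 9 libraries (14118) were fitted with limma 3.58.1 (R 4.3.3) on log2(TPM + 1), with 1 mean per group over all 9 libraries and a variance trend. The 3 contrasts were tested 2-sided with Benjamini-Hochberg adjustment over all genes tested, at 0.05. Because 1 TPM was added before the log2, the fold changes of low genes come out too small, and folds are ratios of mean TPM. A count test planned for read counts was not used because the table holds TPM. The procedure was tested on simulated data. Members, lists and tests were chosen with earlier results of these data known, so list counts and medians are descriptions without a test. Named with values per library were TRIM16, TRIM16L, the interferon-inducible members, other members called in any contrast, the 3 most abundant members and those nearest the filter, with up to 4 called genes per list of partners. TRIM13, TRIM32, TRIM33, TRIM37 and TRIM44 were added after their values were seen, and a gene of these lists is not reported here. Alternatives were other pseudocounts (0.1 and 5), no filter or a mean of at least 5 TPM, median-of-ratios scaling, only the groups compared, library weights, no variance trend, correction for GC content and length, a replicate block, leaving out each library and, added after seeing the data, control replicate 3 alone.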

Additional observations from a re-analysis of the deposited data

Results flagged for a closer look

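The log2 fold changes of 3 members differed between the effects of the 2 constructs, each set against the same control libraries, by the test of NFE2L1 against NFE2L1DC in limma. TRIM34 differed by 1.09 and TRIM21 by 0.85, with all 3 NFE2L1 libraries above all 3 NFE2L1DC libraries in both genes. TRIM16 differed by -1.08, with all 3 NFE2L1 libraries below all 3 NFE2L1DC libraries. TRIM34 and TRIM16 share sequence with TRIM6-TRIM34 and TRIM16L, and the sums over those genes kept the same order of the lines.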

How the results depend on the processing

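With 21 alternatives for each contrast, TRIM14 and TRIM21 kept their call in NFE2L1 against control under all 21 and TRIM34 under all 20 in which it could be tested, while TRIM26 kept it under 18, TRIM39 under 14, TRIM25 under 12, TRIM16 under 8 and TRIM29 under 6. In NFE2L1 against NFE2L1DC, TRIM21 kept its call under 19, TRIM16 under 13 of 21 and TRIM34 under 9 of 20. Of 8 members called in NFE2L1 against control, the count became 4 with no filter on low values, 4 with median-of-ratios scaling, 5 with only the groups compared, 5 without the variance trend, 17 with library weights, and 3 to 15 when single libraries were left out. Library weights called 34.4% of all genes higher and 7.81% lower. The count of 15 was without control replicate 3, where 30.1% of all genes were called higher and 5.69% lower. For the other fits the share over all genes is not given here, so their counts cannot be set against it. In NFE2L1DC against control the count of 0 became 7 with library weights (beside 18.2% of all genes higher and 5.28% lower), 2 with correction for GC content and length, 1 at a mean of at least 5 TPM and 0 to 6 when single libraries were left out. In NFE2L1 against NFE2L1DC the count of 3 became 1 with no filter and 0 to 3 when single libraries were left out. The cause of these shifts was not tested, except that fewer libraries are fitted where some are left out.

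Same-numbered libraries did not deviate together (correlations of -0.189 to 0.109, and 3 of 9 libraries closest to their own number), so the numbers do not pair them. The replicate block gave 6, 0 and 2 calls for NFE2L1 against control, NFE2L1DC against control and NFE2L1 against NFE2L1DC, and with GC content and length correction 8, 3 and 1.

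The median of the interferon-inducible members in NFE2L1 against control was 0.34 with median-of-ratios scaling, 0.67 with library weights and 0.44 to 0.68 when single libraries were left out. In NFE2L1DC against control it was 0.13 on log2(TPM + 5), 0.15 with that scaling, 0.14 against control replicate 3 alone and 0.16 to 0.35 when single libraries were left out, and in NFE2L1 against NFE2L1DC 0.32 to 0.52. The median of TRIM16 and TRIM16L was -0.57 with that scaling and -0.51 against control replicate 3 alone in NFE2L1 against control, and 0.10 under both settings in NFE2L1DC against control.

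Over all 36 members and 3 contrasts, 97 alternative values turned sign, 68 lost a call, 39 gained one and 2037 kept both, and no value that was called with all libraries turned sign. The members with a sign change numbered 17, 20 and 9 for NFE2L1 against control, NFE2L1DC against control and NFE2L1 against NFE2L1DC, and those among the 22 members given with values per library follow. In NFE2L1 against control they were TRIM28 at -0.062 with median-of-ratios scaling and, against control replicate 3 alone, TRIM16L at 0.0045, TRIM5 at -0.24, TRIM38 at -0.019, TRIM33 at -0.12, TRIM44 at -0.038 and TRIM37 at -0.36, and when single libraries were left out TRIM5 at -0.0553 to 0.35, TRIM52 at -0.063 to 1.06 and TRIM32 at -0.67 to 0.43. In NFE2L1DC against control they were TRIM21 at 0.017, TRIM5 at 0.19 and TRIM69 at 0.0087 with library weights, TRIM29 at 0.047 and TRIM38 at -0.051 after GC and length correction, with or without the block, and, against control replicate 3 alone, TRIM16L at 0.14, TRIM29 at 0.0069, TRIM56 at -0.29, TRIM38 at -0.33, TRIM33 at -0.26, TRIM44 at -0.17, TRIM13 at -0.080, TRIM37 at -0.51 and TRIM2 at -0.29. Leaving out single libraries there gave -0.19 to 0.082 for TRIM16L, -0.071 to 0.018 for TRIM21, -0.020 to 0.32 for TRIM38, -0.23 to 0.15 for TRIM5, -0.0237 to 0.42 for TRIM56, -0.19 to 0.056 for TRIM69, -0.72 to 0.13 for TRIM52, -0.011 to 0.55 for TRIM2 and -0.0035 to 0.63 for TRIM37. In NFE2L1 against NFE2L1DC, TRIM35 was 0.029 after GC and length correction, with or without the block, and leaving out single libraries gave -0.0538 to 0.049 for TRIM35, -0.25 to 0.018 for TRIM16L, -0.0064 to 0.18 for TRIM13 and -0.011 to 0.37 for TRIM5. Without counts, the depth that limits members under a few TPM, such as TRIM34, TRIM38 and TRIM5, is unknown.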
